A study of Mus musculus with 8 samples.

Results

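The genes described here are 42 interferon-stimulated genes, a set that rises in most cell types when type I interferon binds its receptor. They were taken by symbol from the probe annotation of 8 one-colour arrays, and all 42 were among the 13224 genes bright enough to be tested, of 22441 genes named on the array. The samples were cells sorted from the ischemic brain of C57BL/6 mice carrying transplanted bone marrow, after 30 min of MCAo (occlusion of the middle cerebral artery) and 7 days of reperfusion, with no further treatment. GFP marked the resident microglia (4 samples) and RFP the invading macrophages (4 samples), and 1 sample of each type came from each of 4 animals, A to D. Both groups therefore share the ischemia, the transplantation and the strain. The sources used here do not give the age of the mice, the marrow donors or the purity of the sorted cells, and brain cells without ischemia were not analysed here. RNA was amplified by a global PCR before labelling, and the question the pairs address is how the resident and the invading cells of one brain differ.

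Type I interferons (interferon alpha and beta) bind the receptor chains IFNAR1 and IFNAR2, whose Janus kinases phosphorylate transcription factors such as STAT2. Together with IRF9 this leads to a complex that binds the interferon-stimulated response element, a short repeat of GAAA, in the promoters of its targets. The products cut or trap viral RNA, block entry, replication and budding, or feed back on the pathway, and microglia are known to switch on such genes in injury and disease. Several members, among them the GTPases Igtp, Iigp1 and Ifi47, respond strongly to interferon gamma as well.

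The response element was searched in promoters because the set is named for the response that it mediates. Windows of 300 bases, from 250 before to 50 after the annotated start, were found in RefSeq (build GRCm38.p6) for 31 of the 42 members. The pattern was GAAANNGAAA, meaning a pair of GAAA sites spaced by 2 bases, on either strand, with overlapping matches counted separately. It was present in 16 of these 31 members (51.6%), in 3.99% of the 27025 genes of the table, and in 3.44% of its 32851 windows. Another list of 63 interferon-stimulated genes held it in 23 of 51 windows (45.1%). The 60 upstream bases printed here show the matches in capitals, on the strand of the gene, for the landmark genes Isg15, Ifit1, Ifit3, Bst2 and Stat2 and for Oas3, Gbp3 and Rsad2, which were added after their values were seen. A match on the other strand reads TTTCNNTTTC.
Isg15 (chr4:156200856-156200915, minus strand): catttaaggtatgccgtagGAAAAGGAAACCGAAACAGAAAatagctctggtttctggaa
Ifit1 (chr19:34640769-34640828, plus strand): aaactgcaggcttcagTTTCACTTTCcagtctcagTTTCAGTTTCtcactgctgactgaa
Ifit3 (chr19:34583365-34583424, plus strand): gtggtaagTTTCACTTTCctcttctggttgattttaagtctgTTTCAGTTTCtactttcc
Bst2 (chr8:71537565-71537624, minus strand): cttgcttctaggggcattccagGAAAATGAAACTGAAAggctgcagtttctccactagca
Stat2 (chr10:128270251-128270310, plus strand): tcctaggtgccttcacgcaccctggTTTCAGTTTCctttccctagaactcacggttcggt
Oas3 (chr5:120777700-120777759, minus strand): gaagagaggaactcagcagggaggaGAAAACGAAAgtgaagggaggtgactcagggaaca
Gbp3 (chr3:142559977-142560036, plus strand): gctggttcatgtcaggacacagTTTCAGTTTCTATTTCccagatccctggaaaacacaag
Rsad2 (chr12:26456538-26456597, minus strand): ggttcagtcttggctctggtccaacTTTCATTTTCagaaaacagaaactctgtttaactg

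In Isg15 these sites run in an array that gives 3 overlapping matches, and 8 members held at least 2 matches in their window. Ifih1, Ddx58, Ifitm3 and Eif2ak2 held the pattern only after the start site, while Oas1a, Gbp2, Igtp and Irgm1 held it upstream. By role the share ran from 4 of 5 windows of the GTPases to 1 of 6 in the group of Stat2 and the unclassified members. Of the 7 members called higher in macrophages, described below, 6 had a window and 0 of the 6 held the pattern, against 16 of the 25 other members with a window. A match is a description of the letters and not of binding, and the absence of one says only that these letters are not in this window.

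**Figure D1:**
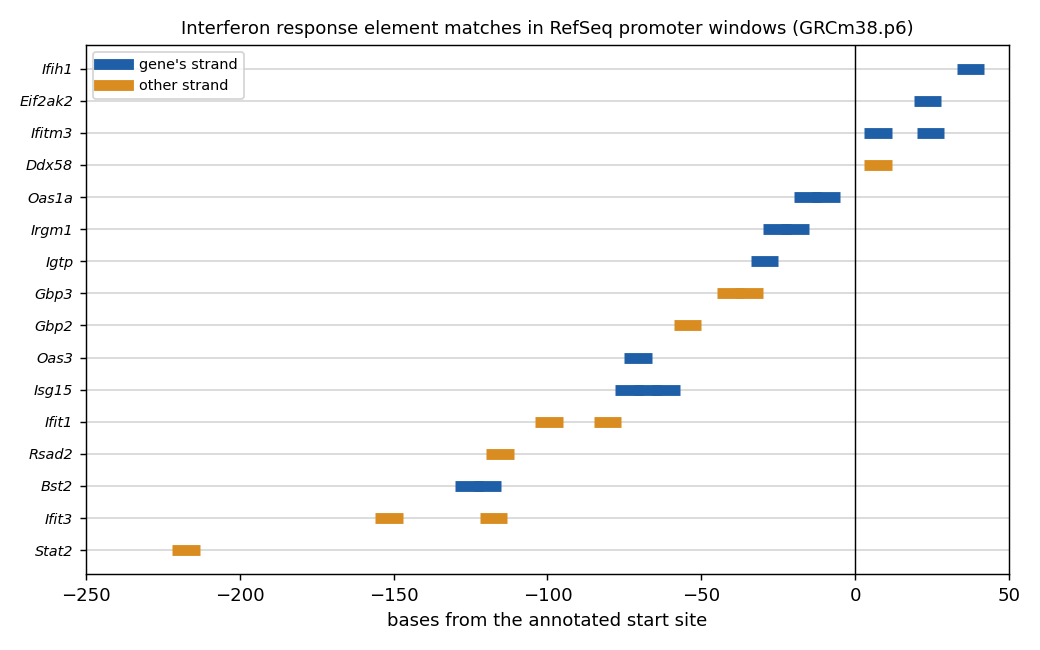
Position of each response element match in the RefSeq windows of the 16 members that hold one, in bases from the annotated start site, with blue for the strand of the gene and orange for the other strand. Matches lie between position -222 (Stat2) and position 42 (Ifih1), where negative positions are upstream.

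Levels are log2 signals relative to the 75th percentile of the array, so that 0 is the level of that percentile and 1 unit is a doubling. Each gene is shown by 1 probe, and probes differ in how well they bind, so levels are compared between arrays and never between genes. In sorted bulk samples, fewer cells of a type and less RNA per cell cannot be told apart. Well above background were 45.7% to 57.1% of the 55681 probes on an array, 40 of the 42 members were so on all 8 arrays, and no gene spot was saturated. Oas2 was well above background on 3 arrays of each group, and Oasl1 on 3 microglia and 4 macrophage arrays. Precision is limited by having 4 arrays in a group.

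The sorted cells carried the markers of their labels, with signal of other cells in the macrophage samples. Of 10 microglia markers, 7 were lower in macrophages, and Sall1, a transcription factor of microglia, was well above background on 4 microglia arrays and 1 macrophage array. Of 10 monocyte and macrophage markers, 6 were higher. Of 12 endothelial markers tested, 8 were higher in macrophages. Beside these marker counts, 3.01% of all genes were called higher and 4.30% lower at an adjusted p under 0.05 (limma). Summed levels take every listed marker with a probe, tested or not, which was 15 for the endothelial list. Its summed log2 level was 3.13 to 4.74 in microglia. In the macrophages of animals A, B, C and D it was 6.56, 10.3, 7.15 and 4.90, so that the macrophages of animal B stood apart. Those cells also had the highest summed level of the 8 arrays for natural killer and T cell genes (4.44 against 1.66 to 2.34 in the other macrophages), erythroid genes (7.65 against 1.25 to 2.88), neutrophil genes (6.52 against 3.08 to 5.12), dendritic cell genes (3.64 against 1.45 to 2.07), oligodendrocyte genes (4.36 against 2.89 to 3.87) and pericyte genes (2.84 against 0.957 to 1.29). Within the natural killer and T cell list, Gzmb, Gzma and Ncr1 were highest there, at 2.60, 1.74 and 2.04, while Lck, Cd8a and Cd4 were lowest there, at -3.37, -5.44 and -1.47. Among the other lists, the calls were 1 of 8 border-associated macrophage genes lower, 1 of 5 plasmacytoid dendritic cell genes lower (a list that also holds the member Bst2), 1 of 6 dendritic cell genes higher, 2 of 9 natural killer and T cell genes higher, 1 of 5 astrocyte genes in each direction, 1 of 4 oligodendrocyte genes higher, the 1 erythroid gene tested higher, and 0 of the 5 neutrophil, 2 neuron, 1 B cell and 1 pericyte genes tested. The main counts below, and differences whose call or size changes, are therefore also given without the macrophages of animal B, and the part of these other cells in the results was not tested.

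Across the 42 members, 7 were higher in macrophages and 0 lower at an adjusted p under 0.05 (limma, Benjamini-Hochberg over all genes tested). The share of all genes called was 3.01% higher and 4.30% lower. The 7 were Ifi44, Cmpk2, Ifi47, Sp100, Samd9l, Rtp4 and Xaf1. Blocking on the animal, which uses the pairing of the samples, left 2 members called, Cmpk2 and Sp100, and 1.78% of all genes were called higher. With slide and animal both blocked, these 2 also lost their calls (limma, adjusted p = 0.0612 for Cmpk2 and 0.0607 for Sp100), as did the other 5 of the 7, and Oas3 alone was called, beside 2.53% of all genes higher. Only animal B had its 2 arrays on different slides, so the differences of that fit come from animals A, C and D alone. Its median difference of the members, 0.76, was the same as in the fit without animal B. Without the macrophages of animal B, 15 members were called and 9.44% of all genes were called higher; the 15 were the same 7 with Bst2, Dhx58, Gbp3, Ifi35, Ifit2, Oas1a, Oas3 and Zbp1. The count was 4 without the microglia of animal B, 3 without the microglia of C, 3 without the macrophages of A and 4 without the macrophages of C, and the share of all genes called higher was 1.27%, 1.47%, 1.38% and 1.50% in the same fits. The arrays came from a pair of slides. With slide as a block 5 members and 1.63% of all genes were called higher, without Samd9l and Xaf1 (limma, adjusted p = 0.0592 and 0.0874). Within the larger slide (5 arrays) or the smaller one (3 arrays) 0 were (limma), with 11 and 4 members at an unadjusted p under 0.05 and median differences of 0.78 and 0.86, and 0.0302% and 0.333% of all genes were called higher. The median difference of the members was 0.83 and that of all genes 0.04, and 37 of the 42 members lay above 0, as did 52.4% of all genes. At an unadjusted p under 0.05 were 19 members, all of them higher in macrophages, and 24.5% of all genes. The 4 macrophage arrays lay above all 4 microglia arrays in 13 members, the 7 called ones with Ifit2, Isg15, Rsad2, Ifitm3, Gbp3 and Ifi35, and in 8.43% of all genes. Values for the 7 called members fill the next paragraphs, and the other members follow by role.

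**Figure D2:**
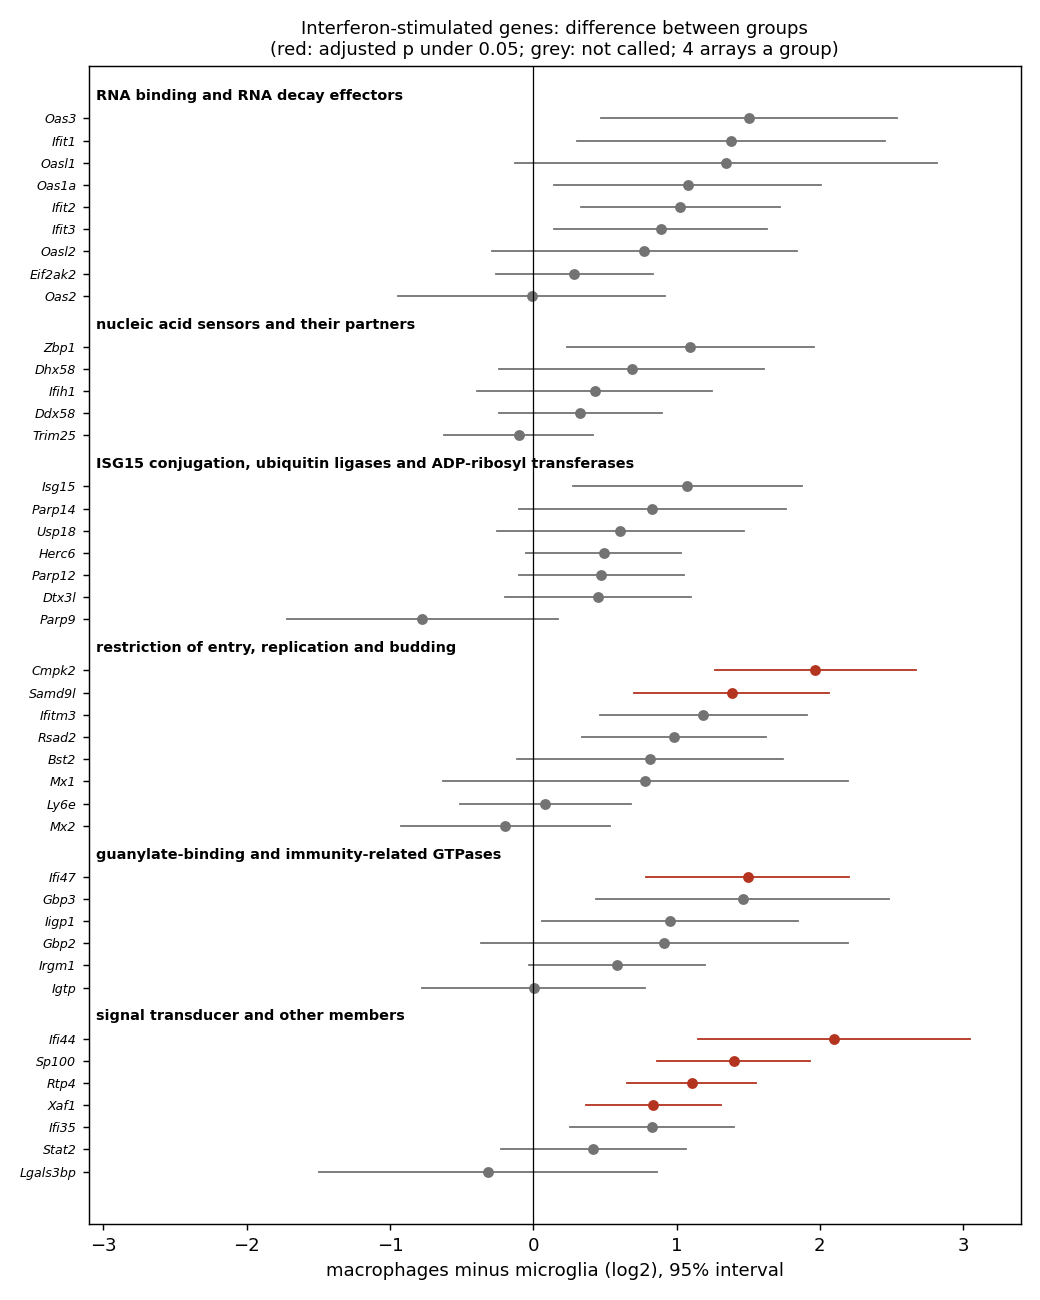
Difference between the group means of each of the 42 members (macrophages minus microglia, log2, 4 arrays a group), with its 95% interval, grouped by role. The 7 members in red passed an adjusted p under 0.05, from Xaf1 at 0.84 to Ifi44 at 2.10, and 5 members lie below 0 with intervals that cross it.

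Cmpk2 encodes a mitochondrial nucleotide kinase and lies beside Rsad2, which is read from the other strand. Its level was -0.11, -0.28, 0.46 and 0.19 in the microglia of animals A, B, C and D, and 2.23, 2.55, 1.99 and 1.36 in their macrophages. All macrophage arrays were above all microglia arrays, with animal B the widest pair and animal D the narrowest. The difference was 1.97 ± 0.31 (log2, SE, n = 4 arrays a group), or 3.91-fold (limma, adjusted p = 0.00757; 0.0446 with animals blocked). Its call held in each of the 8 fits that leave out 1 array. Rsad2, which encodes viperin, an enzyme that makes a chain-terminating nucleotide, was 1.24, 0.57, 1.52 and 0.99 in microglia and at 2.16, 2.16, 2.34 and 1.58 in macrophages. The groups did not overlap here either, and the difference of 0.98 ± 0.28 (SE, n = 4 a group) missed the threshold (limma, adjusted p = 0.0739).

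Ifi44, whose product is a GTP-binding-like protein of the cytoplasm, had the widest difference among the members. Microglia of animals A to D were at 1.62, -0.14, 0.58 and 1.10, and macrophages at 3.02, 3.50, 2.73 and 2.32. The lowest microglia array and the highest macrophage array came from the same animal, B, and the groups did not overlap. Macrophages were higher by 2.10 ± 0.42 (log2, SE, n = 4 a group), or 4.29-fold (limma, adjusted p = 0.0203; 0.0712 with animals blocked). This call held in 6 of the 8 fits that leave out 1 array, and was lost without the microglia of animal C or the macrophages of animal A (limma, adjusted p = 0.0632 and 0.0574).

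Sp100 forms part of PML nuclear bodies, which restrict DNA viruses. Its microglia levels were 1.61, 1.30, 1.28 and 1.15, and its macrophage levels 2.76, 2.67, 3.12 and 2.38. Every pair rose by more than the whole range of the microglia. The difference of 1.40 ± 0.23 (SE, n = 4 a group), or 2.63-fold, was called (limma, adjusted p = 0.00998; 0.0402 with animals blocked) and remained so in all 8 fits that leave out 1 array.

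Rtp4 encodes a receptor transporter protein with antiviral activity. It was at 4.63, 4.41, 4.30 and 4.59 in microglia and at 5.72, 5.55, 5.63 and 5.45 in macrophages. Both groups were tight, with a standard deviation of 0.15 in microglia and at 0.12 in macrophages. The difference was 1.10 ± 0.20 (SE, n = 4 a group), or 2.15-fold (limma, adjusted p = 0.0127; 0.0580 with animals blocked), and it was called in all 8 fits that leave out 1 array.

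Ifi47, an immunity-related GTPase, had nearly the same level in all macrophages, 0.85, 0.87, 0.80 and 0.87, against 0.04, -0.45, -0.76 and -1.41 in microglia. The spread was on the microglia side, where animal A was highest and animal D lowest. The difference was 1.50 ± 0.31 (SE, n = 4 a group), or 2.82-fold (limma, adjusted p = 0.0244; 0.0631 with animals blocked). It was called in 3 of the 8 fits that leave out 1 array, those without the microglia of A, the microglia of D or the macrophages of B, and in the other fits its adjusted p rose to at most 0.0722 (limma). Samd9l, a restriction factor that acts on translation, was at 2.13, 0.98, 1.74 and 1.25 in microglia and at 2.95, 2.82, 3.25 and 2.64 in macrophages. Macrophages lay above microglia in every animal and without overlap. The difference of 1.39 ± 0.30 (SE, n = 4 a group), or 2.61-fold, was called (limma, adjusted p = 0.0272; 0.0515 with animals blocked), and in 3 of the 8 fits that leave out 1 array, those without the microglia of A, the macrophages of B or the macrophages of D (highest adjusted p 0.0851 in the others, limma). Xaf1, a pro-apoptotic partner of the inhibitor XIAP, stood at 4.15, 3.58, 3.78 and 3.84 in microglia and at 4.70, 4.68, 4.73 and 4.58 in macrophages. Its groups were close but apart. The difference of 0.84 ± 0.21 (SE, n = 4 a group), or 1.79-fold, was the smallest that passed (limma, adjusted p = 0.0462; 0.109 with animals blocked), and it was called in 2 of the 8 fits that leave out 1 array, those without the microglia of A or the macrophages of B (highest adjusted p 0.133 in the others, limma).

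**Figure D3:**
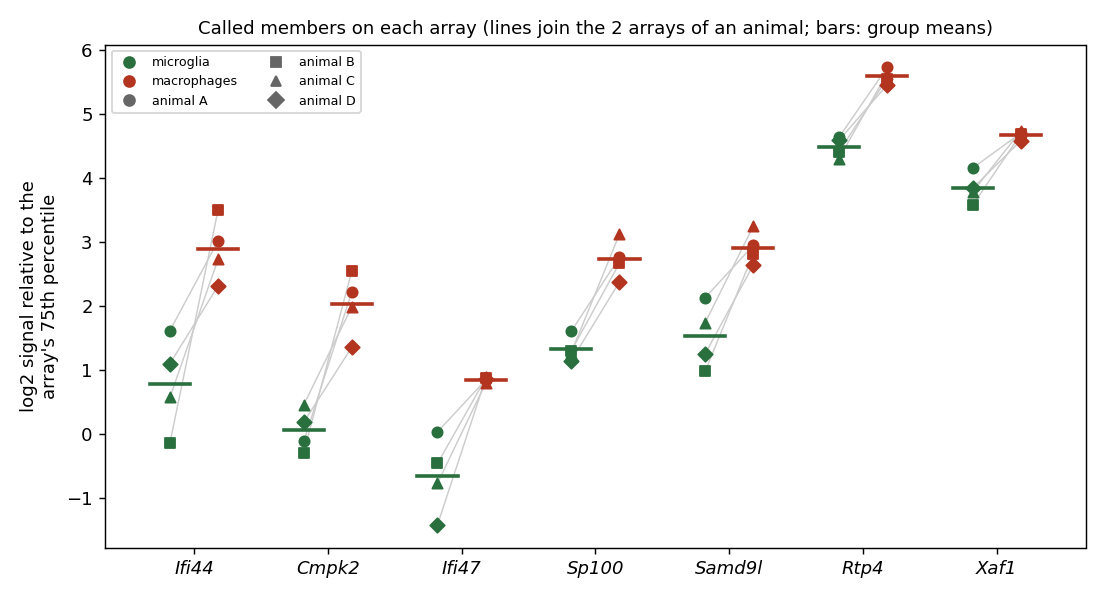
Level of the 7 called members on each array (log2 signal relative to the 75th percentile of the array), with microglia in green, macrophages in red, a symbol for each animal, lines joining the arrays of an animal and bars at the group means. In each gene the 4 macrophage arrays lie above the 4 microglia arrays, and the macrophage levels of Ifi47 lie between 0.80 and 0.87.

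The RNA-binding and RNA-decay effectors had 0 of 9 members called (limma) and a median difference of 1.03. At an unadjusted p under 0.05 (limma) were 5 of the 9, and 24.5% of all genes. Higher in all 4 animals were 7 of the 9, and 18.4% of all genes. The group holds the IFIT proteins, which bind viral RNA ends, the OAS enzymes, which activate RNase L, and Eif2ak2, the kinase PKR. Ifit1 was at 2.92, 1.17, 1.48 and 0.98 in microglia and at 2.95, 3.66, 3.16 and 2.29 in macrophages. The groups overlapped through animal A alone, whose microglia were about level with its macrophages. The difference was 1.38 ± 0.47 (SE, n = 4 a group; limma, adjusted p = 0.115). Ifit3 behaved likewise, at 4.76, 3.54, 4.43 and 3.78 in microglia and at 5.04, 5.01, 5.41 and 4.61 in macrophages, a difference of 0.89 ± 0.33 (limma, adjusted p = 0.138). Its microglia of animal A were again the highest, above the macrophages of animal D. Without the macrophages of animal B, Ifit1 and Ifit3 differed by 1.16 and 0.89 and were not called (limma, adjusted p = 0.140 and 0.126). In that fit 3 of the 9 members of the group were called, beside 9.44% of all genes called higher.

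Oas3 had the widest difference of this group, 1.51 ± 0.45 (log2, SE, n = 4 a group; limma, adjusted p = 0.0826). It was at -1.28, -1.41, -0.66 and -1.66 in microglia and at 1.0, -0.96, 0.86 and 0.11 in macrophages. The macrophages of animal B were the only macrophage array within the range of microglia, and without them the difference was 1.91 (limma, adjusted p = 0.00817). Oas1a had the same shape, with a difference of 1.08 that became 1.45 without that array (limma, adjusted p = 0.149 and 0.0135), while in Ifit2 that array was the lowest of the macrophages but above all microglia, and the difference of 1.03 became 1.25 (limma, adjusted p = 0.0801 and 0.0163). At the other end Oas2, a dim probe, was at -2.80, -2.62, -2.84 and -4.42 in microglia and at -3.13, -3.52, -2.90 and -3.17 in macrophages. Only its microglia of animal D stood apart. The difference of -0.01 had a 95% interval of -0.94 to 0.92, which leaves room for a change of nearly 2-fold either way, and its sign turned under several other settings. Oasl1, Oasl2 and Eif2ak2 were not called, with differences of 1.34, 0.78 and 0.29 (limma, adjusted p = 0.243, 0.348 and 0.504).

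Among the nucleic acid sensors and their partners, 0 of 5 were called (limma), and the median difference was 0.43. At an unadjusted p under 0.05 (limma) were 1 of the 5 and 24.5% of all genes. Zbp1, a sensor of Z-form nucleic acid that can start necroptosis, was at 3.69, 2.53, 3.12 and 2.60 in microglia and at 4.05, 3.36, 4.80 and 4.10 in macrophages. Each animal had more in its macrophages, but the microglia of animal A were above the macrophages of animal B. The difference was 1.10 ± 0.38 (SE, n = 4 a group; limma, adjusted p = 0.118), and 1.33 without the macrophages of animal B (limma, adjusted p = 0.0385). The RNA helicases MDA5 (Ifih1), RIG-I (Ddx58) and LGP2 (Dhx58) differed by 0.43, 0.33 and 0.69 (limma, adjusted p = 0.503, 0.455 and 0.338). Dhx58 reached 1.05 without the macrophages of animal B (limma, adjusted p = 0.0449).

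Trim25, the ubiquitin ligase that acts with RIG-I, was measured by a pair of passing probes that disagreed. The brighter one, which the probe rule selects, was at 9.57, 9.26, 9.31 and 9.36 in microglia and at 9.71, 8.99, 9.17 and 9.24 in macrophages, a difference of -0.10 (limma, adjusted p = 0.824). Its groups overlapped and its level hardly varied. The other was at -0.79, -0.20, -0.20 and -0.86 in microglia and at 0.76, 0.45, 1.10 and 0.41 in macrophages. Here the groups did not overlap, and the difference was 1.19 with a 95% interval of 0.57 to 1.81 (limma, adjusted p = 0.0334 in the fit without repeat probes). The last 30 bases of each 60-base probe are printed because they differ in kind, with a run of GT in capitals. The bright probe is annotated to chr11:88874956-88881181 and the other to chr11:88881521-88881580, in build mm9.
Trim25, brighter probe: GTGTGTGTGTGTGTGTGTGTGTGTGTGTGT
Trim25, other probe: tctttatttgactgcttctgattctttttc

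The repeat of the brighter probe is 31 bases long, and it was the only one of the 59 member probes with a dinucleotide repeat of at least 16 bases. On this array 130 tested probes had such a repeat. Their median level was 8.86 and their median absolute difference between the groups 0.10, whereas the 29235 other tested probes had a median level of -0.33 and a median absolute difference of 0.48. In a fit without repeat probes, chosen after seeing these values, 8 members were called, the earlier 7 and Trim25, and 3.03% of all genes were called higher. What the repeat does to the signal was not tested. Of the 15 members with several passing probes, the other 14 had probes of one sign.

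The group of ISG15 conjugation, ubiquitin ligases and ADP-ribosyl transferases had 0 of 7 members called (limma) and a median difference of 0.49. At an unadjusted p under 0.05 (limma) were 1 of the 7 and 24.5% of all genes. Isg15 itself, the ubiquitin-like protein that is attached to newly made proteins, was at 3.88, 2.89, 4.26 and 2.92 in microglia and at 4.53, 4.68, 4.78 and 4.26 in macrophages. The microglia split into a higher pair, animals A and C, and a lower pair, B and D, while the macrophages were alike. The highest microglia array missed the lowest macrophage array by very little, and the difference was 1.07 ± 0.35 (SE, n = 4 a group; limma, adjusted p = 0.103). A further Isg15 probe gave 1.11. Usp18, which removes ISG15 and dampens receptor signalling, differed by 0.61, Herc6, the mouse ISG15 ligase, by 0.49, and Parp12 and Parp14 by 0.48 and 0.83, and none of these 4 was called (limma, adjusted p = 0.366, 0.245, 0.285 and 0.253).

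Dtx3l and Parp9 encode partners in one ubiquitin ligase complex and are neighbours in the genome. Dtx3l was at 4.03, 3.33, 3.38 and 3.46 in microglia and at 4.41, 3.48, 4.26 and 3.85 in macrophages, a difference of 0.45 ± 0.29 (SE, n = 4 a group; limma, adjusted p = 0.372). All animals had more in macrophages, within overlapping groups. Parp9 was at 0.11, -1.19, 0.00 and -1.02 in microglia and at -0.57, -1.87, -1.68 and -1.08 in macrophages. All 4 animals had less in macrophages, so that Parp9 ran against the rest of its group, but the difference of -0.77 ± 0.42 (SE, n = 4 a group) was not called (limma, adjusted p = 0.290). A further Parp9 probe gave a smaller difference, -0.23.

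Genes that restrict entry, replication and budding had 2 of 8 members called, Cmpk2 and Samd9l, and a median difference of 0.90. Of all genes, 3.01% were called higher. In 4 of the 8 all macrophage arrays lay above all microglia arrays, as they did in 8.43% of all genes. Ifitm3, which blocks viral fusion in endosomes, was at 5.39, 4.11, 5.07 and 4.52 in microglia and at 6.11, 5.94, 6.19 and 5.59 in macrophages. Macrophages were above microglia throughout, and the difference of 1.19 ± 0.32 (SE, n = 4 a group) lay just beyond the threshold (limma, adjusted p = 0.0590). Bst2, or tetherin, which holds budding virus at the cell surface, was at 6.07, 5.0, 5.81 and 5.20 in microglia and at 6.86, 5.27, 6.58 and 6.61 in macrophages. Only the macrophages of animal B fell within the microglia range. The difference was 0.81 ± 0.41 (SE, n = 4 a group; limma, adjusted p = 0.261), and 1.17 without that array (limma, adjusted p = 0.0363).

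Mx1, a dynamin-like GTPase whose C57BL/6 allele is known to be defective, was at -0.52, -1.86, -0.73 and -1.12 in microglia and at -0.72, -1.84, 1.15 and 0.31 in macrophages. Macrophages of animals C and D were high and those of A and B were not, and the difference of 0.78 ± 0.62 (SE, n = 4 a group) was not called (limma, adjusted p = 0.479), nor was that of 1.31 without the macrophages of animal B (limma, adjusted p = 0.108). Its relative Mx2 differed by -0.19 (limma, adjusted p = 0.752). Ly6e, a surface protein that limits coronavirus entry, was at 7.34, 6.43, 6.87 and 6.63 in microglia and at 7.24, 6.74, 6.90 and 6.73 in macrophages. Its groups lay over each other, and the difference of 0.08 had a 95% interval of -0.51 to 0.68 (limma, adjusted p = 0.880).

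The guanylate-binding and immunity-related GTPases, which attack the vacuoles of intracellular pathogens, had 1 of 6 members called, Ifi47, and a median difference of 0.93. Of all genes, 3.01% were called higher. The macrophages of animal B were the highest macrophage array in 5 of the 6, Irgm1 being the exception, and in 23.5% of all genes. In Ifi47 they were barely so, at 0.87 beside 0.87 in animal D. Gbp3 was at 2.49, 2.11, 2.0 and 2.51 in microglia and at 3.25, 5.16, 3.40 and 3.16 in macrophages. The groups did not overlap, and 8.43% of all genes were higher in macrophages without overlap. The array of animal B lay far above the other macrophages. The difference of 1.46 ± 0.45 (SE, n = 4 a group; limma, adjusted p = 0.0869) fell to 0.99 without that array and was then called (limma, adjusted p = 0.0210). Gbp2 and Iigp1 differed by 0.91 and 0.96 (limma, adjusted p = 0.358 and 0.177), and by 0.45 and 0.62 without it (limma, adjusted p = 0.531 and 0.181). Irgm1 differed by 0.58 (limma, adjusted p = 0.226). Igtp had 10 spots on each array, of which 9 or 10 were used once outlier spots were left out. It was at 0.35, -0.26, 0.53 and 0.64 in microglia and at 0.09, 0.99, 0.52 and -0.33 in macrophages. It was higher in macrophages in animal B and lower in A, C and D, with a difference of 0.00 between the groups and a 95% interval of -0.78 to 0.78 (limma, adjusted p = 0.997).

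The last group holds the signal transducer Stat2 and members of other or unsettled function. It had 4 of 7 called, Ifi44, Sp100, Rtp4 and Xaf1, beside 3.01% of all genes called higher. Its median difference was 0.84. Stat2, part of the complex that binds the response element, was at -0.14, -0.99, -0.15 and -1.08 in microglia and at -0.06, -0.14, -0.34 and -0.13 in macrophages. The microglia of animals A and C were level with macrophages and those of B and D were lower. The difference was 0.42 ± 0.28 (SE, n = 4 a group; limma, adjusted p = 0.406). Ifi35 differed by 0.83 without overlap (limma, adjusted p = 0.0855), and 8.43% of all genes were higher in macrophages without overlap. Lgals3bp, a secreted galectin ligand, was at 7.08, 6.01, 6.64 and 6.06 in microglia and at 7.01, 4.62, 6.55 and 6.34 in macrophages. It was lowest in the macrophages of animal B, and the difference of -0.32 ± 0.52 (SE, n = 4 a group; limma, adjusted p = 0.751) became 0.19 without them.

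Within a group the members varied by animal. Their median level was 2.16, 1.17, 1.83 and 1.44 in the microglia of animals A, B, C and D, and 2.72, 3.03, 3.01 and 2.35 in the macrophages. Microglia of animals A and C thus lay above those of B and D, while macrophages of D were the lowest of their group. The microglia of animal A held the highest microglia level in 27 of the 42 members, against 37.4% of all genes, and those of animal B the lowest in 24, against 29.4% of all genes. In macrophages animal C was the highest in 18 members, against 21.1% of all genes. The macrophages of animal B were the lowest in 22 members, against 49.7% of all genes, and the highest in 8 (Ifit1, Cmpk2, Gbp2, Gbp3, Igtp, Iigp1, Ifi47 and Ifi44), against 23.5% of all genes. Both shares of the members are near those of all genes.

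**Figure D4:**
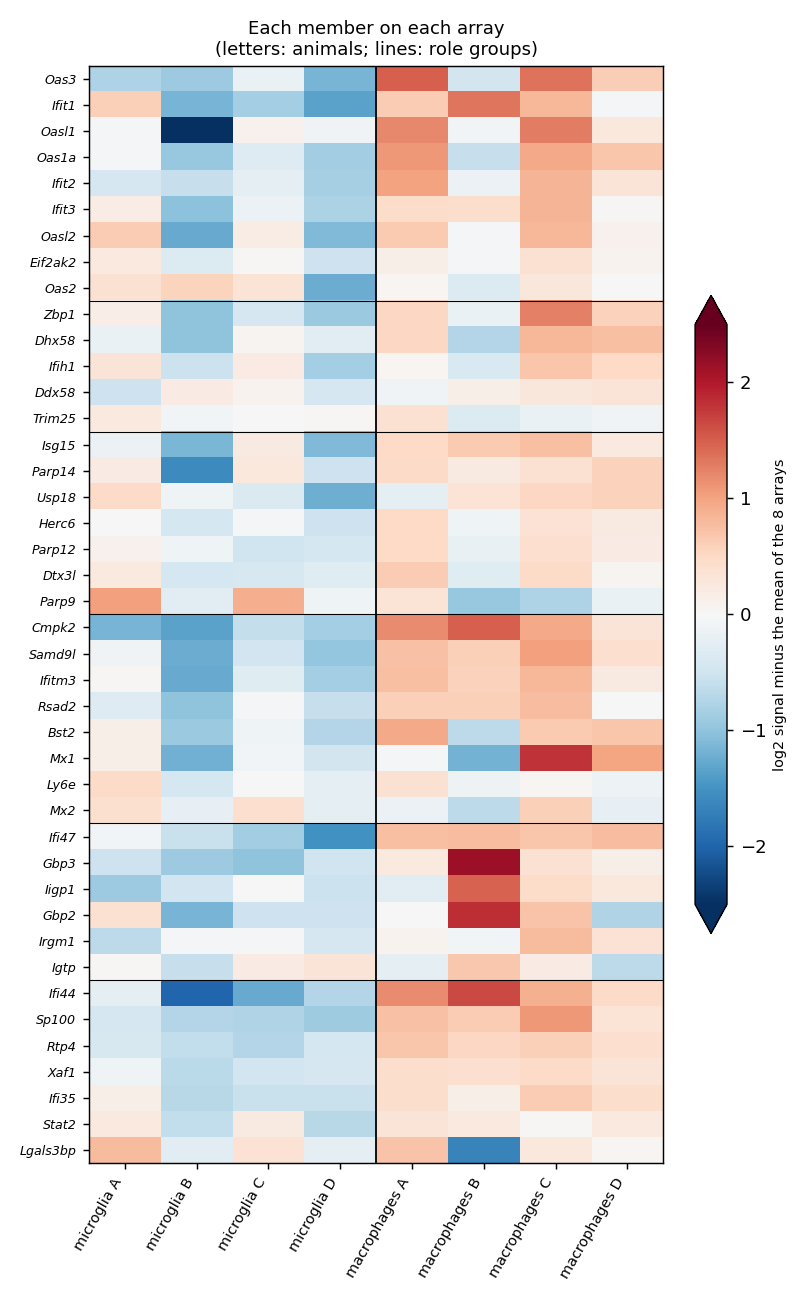
Each of the 42 members (rows, grouped by role and ordered by their difference) on each of the 8 arrays (columns, by group and animal), as log2 signal minus the mean of the gene over the 8 arrays, with red above and blue below that mean. The macrophages of animal B are red for Gbp3 and Gbp2 and blue for Lgals3bp and Mx1, and the microglia of animal A are nearer to the macrophages than the other microglia are in genes such as Ifit1.

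Taken animal by animal, the median difference of the members was 0.41 in A, 0.84 in B, 0.89 in C and 0.97 in D. The median of all genes tested was 0.07, -0.12, 0.13 and 0.08 in the same order. In 26 of the 42 members the macrophages were higher in all 4 animals, which held for 18.4% of all genes. The effectors that bind or degrade RNA had medians of 0.28 in animal A, 0.45 in B, 1.08 in C and 1.22 in D. The GTPases had 0.69, 1.64, 1.04 and 0.71, with animal B the highest. Whether the animals differ was not tested, since each gave 1 pair.

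**Figure D5:**
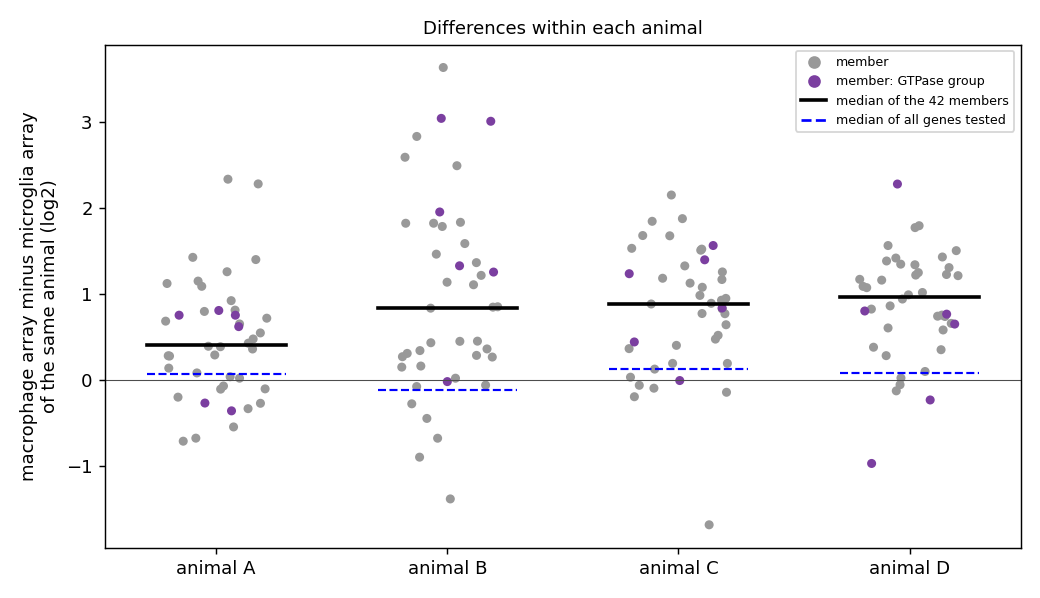
Difference between the macrophage and the microglia array of each animal for the 42 members (points, with GTPases in purple), with the median of the members (black bar) and of all genes tested (blue dashes), in log2 units. Member medians lie between 0.41 in animal A and 0.97 in animal D, and a GTPase, Gbp3, reaches 3.04 in animal B.

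Ligands of the pathway were hardly seen. Of 21 interferon genes listed, 16 had a probe and 1, Ifnl3, passed the filter, with a difference of -0.44 that was not called. Probes for Ifnb1 and Ifng were well above background on 0 of the 8 arrays. The other 5 ligands were not analysed here. Interferon transcripts are known to be brief and scarce, and these probes say nothing of interferon made by other cells.

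Of the 5 receptor chains tested, 1 was called lower in macrophages, beside 4.30% of all genes. Ifnar1, one chain of the type I receptor, was at 1.96, 2.24, 1.72 and 2.48 in microglia and at 2.97, 3.34, 2.77 and 2.57 in macrophages. Macrophages were above microglia without overlap, though only just in animal D, and the difference of 0.82 was not called (limma, adjusted p = 0.101). Ifnar2, the other chain, differed by 0.07 with a 95% interval of -0.52 to 0.66 (limma, adjusted p = 0.906). The call was Ifngr1, the ligand-binding chain of the interferon gamma receptor, at 4.36, 4.26, 3.72 and 4.49 in microglia and at 3.20, 2.83, 2.84 and 3.34 in macrophages. It fell by 1.15 (log2; limma, adjusted p = 0.0287; 0.0543 with animals blocked; 0.0661 with slides blocked) and was lower in all 4 animals.

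Irf9, the DNA-binding part of the complex, was at 0.51, 0.39, 0.15 and -1.19 in microglia and at -0.21, 0.23, -0.08 and 0.85 in macrophages, a difference of 0.24 that was not called (limma, adjusted p = 0.772). Of 8 other interferon regulatory factors 1 was called higher, beside 3.01% of all genes. This was Irf7, the factor that amplifies interferon production and is itself induced by interferon. Its level was 3.88, 3.03, 4.02 and 3.12 in microglia and at 5.73, 4.30, 5.54 and 4.93 in macrophages. As in Isg15, microglia of animals A and C were above those of B and D, and macrophages were above all of them. It differed by 1.61 (limma, adjusted p = 0.0416; 0.0263 with animals blocked; 0.0676 with slides blocked). Of the 8 fits that leave out 1 array, Ifngr1 was called in 3 and Irf7 in 1.

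Negative regulators had 0 of 7 genes called (limma) and a median difference of 0.06. At an unadjusted p under 0.05 (limma) were 1 of the 7 and 24.5% of all genes. Of 12 tested genes that lead to interferon production, 1 was higher and 1 lower, beside 3.01% and 4.30% of all genes. Tlr3, the endosomal receptor for double-stranded RNA, was at -0.13, 0.01, -0.29 and -0.02 in microglia and at -1.16, -2.11, -1.61 and -1.59 in macrophages, and it fell by 1.51 (log2; limma, adjusted p = 0.00919). The microglia were tight and far above every macrophage array. Irak4, a kinase behind the Toll-like receptors, was higher in macrophages by 1.02 (limma, adjusted p = 0.0423; 0.0853 with animals blocked; 0.0863 with slides blocked), and was called in 1 of the 8 fits that leave out 1 array, whereas Tlr3 was called in all of them. Ifngr1, Irf7, Tlr3 and Irak4 were each still called without the macrophages of animal B (limma, adjusted p = 0.0275, 0.0101, 0.00566 and 0.00619).

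The other list of interferon-stimulated genes gave a larger base, with 59 of its 63 genes tested. Of these, 8 were higher in macrophages and 0 lower, with a median difference of 0.58, beside 3.01% of all genes called higher. Blocking on the animal left 5 of them, beside 1.78% of all genes called higher. Leaving out the macrophages of animal B gave 17, beside 9.44% of all genes. The 8 were Helz2 (a difference of 2.09), Ifi203 (2.26), Slfn1 (2.13), Slfn5 (1.47), Gbp6 (1.75), Ifitm2 (1.63), Sp140 (1.27) and Isg20 (1.10), with adjusted p from 0.00799 for Gbp6 to 0.0481 for Isg20 (limma). The groups did not overlap in any of the 8, but these were picked by their difference on the same arrays. Of the 59 genes, 11 were higher and 1 lower in macrophages without overlap, beside 8.43% of all genes higher. With slides blocked, Isg20, Slfn1 and Sp140 were not called (limma, adjusted p = 0.0850, 0.0603 and 0.0844). Helz2, Slfn5, Gbp6 and Ifitm2 were called in all 8 fits that leave out 1 array, Ifi203 in 5, Slfn1 in 3, and Sp140 and Isg20 in 1 each. Ifi203 belongs to the DNA-binding HIN-200 family, Slfn1 and Slfn5 to the Schlafens, which act on growth and translation, Isg20 is an exonuclease, and Sp140 is a relative of Sp100. Ifi203 was at 2.76, 1.55, 2.40 and 2.24 in microglia and at 4.95, 3.33, 4.94 and 4.75 in macrophages, and here the macrophages of animal B were the lowest of their group. Paralogs of the Ifit, Oas, Gbp and interferon-inducible GTPase families are similar in sequence, and whether probes bind more than 1 of them was not tested.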

How the data were processed

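The 8 samples were measured on one-colour Agilent arrays. Per the labels' protocols, cDNA made from mRNA went through a global PCR (SuperAmp) before Cy3 labelling, and amplification can alter the proportions of transcripts. Per the file headers, Agilent Feature Extraction 10.7.3.1 read the arrays, and the processed signal is a background-corrected intensity that the authors deposited without normalization between arrays. A log2 table of these arrays that the authors deposited, with medians of 4.604 to 4.606, was used as an alternative; the sources used here do not give its normalization and centring.

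Control spots and outlier spots were left out, spots of a probe were averaged as log2, and the 75th percentile of each array was subtracted. A probe was tested if well above background on at least 4 of 8 arrays, and of several passing probes the brightest on average represented its gene. The RefSeq gene table of GRCm38.p6 served only to name probes, by accession (27509 probes), symbol (3549) or synonym (404), and 24219 had no name. Probe coordinates are those of the files (mm9). Macrophages were compared with microglia with limma 3.58.1 (R 4.3.3; lmFit, then eBayes, two-sided, Benjamini-Hochberg over 13224 genes), checked on simulated data. Other software was pandas 2.3.3 and numpy 2.4.6 on Python 3.11.15. Full values are given for the called members, for the members with the largest and smallest difference of each role group, and for a set of landmark genes; values given in full for Rsad2, Parp9 and Gbp3 and for the other Trim25 probe were chosen after they were seen.

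Samples are paired, since the labels name the animal. Deviations from the group means correlated across genes at 0.0704, 0.114, 0.0866 and -0.000874 within animals A to D. The fit without the animal is the main one. Alternatives changed the scaling, background correction, filter, probe rule, blocks, weights and the arrays used. The members, their role groups, the pathway and marker lists and the tests were chosen with earlier results of these data known. Some results of the pathway lists are not reported here.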

Additional observations from a re-analysis of the deposited data

Results flagged for a closer look

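In groups of 4 arrays, a value was singled out where its gap to the nearest array took a larger share of the range of the group than Dixon's 95% critical value, which chance gives in about 1 of 20 groups, and 3 of the 84 groups of member levels met this. The microglia of animal D lay low for Oas2 (-4.42, gap over range 0.881). The microglia of animal B lay low for Oasl1 (-4.93, gap over range 0.930). The macrophages of animal B lay high for Gbp3 (5.16, gap over range 0.884). Both low values belong to dim probes that were not well above background on every array.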

How the results depend on the processing

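Of the 42 members, 7 were called higher, and no alternative called any of them lower (limma). The count was 11 with the array median (5.16% of all genes called higher), 2 with the replicate block (animal; 1.78%), 19 with array weights (11.6%), and 3 to 15 when 1 array was left out (1.27% to 9.44%), beside 3.01% for the 7. With slide and animal as blocks (replicate block), where the differences come from animals A, C and D alone, it was 1, Oas3 (2.53%). Within the larger and within the smaller slide it was 0 (limma), with 11 and 4 members at an unadjusted p under 0.05. Scaling by the array median moved the median of all genes from 0.04 to 0.25, and scaling on probes detected on all arrays moved it to -0.12. The median difference of the members lay between 0.66 and 1.04 in all settings. Of the members, 7 changed sign in some setting, 6 of them with main differences between -0.32 and 0.08 and Usp18 with one of 0.61. Oas2 turned to 0.19 with the array median, 0.18 with quantile normalization, 0.19 in the authors' deposited table, 0.13 with slide as a block, 0.28 with slide and animal as blocks, 0.43 on the larger slide, 0.16 with array weights, 0.28 without animal B, and ranged from -0.43 to 0.17 without 1 array. Trim25 turned to 0.10 with the array median, 0.54 with the mean of its passing probes, 0.29 on the smaller slide and 1.19 without repeat probes. Usp18 was -0.42 on the smaller slide. Mx2 was 0.012 with the array median and 0.075 with array weights. Ly6e was -0.074 with the percentile over probes detected on all arrays, -0.13 with quantile normalization and in the authors' deposited table, and it ranged from -0.046 to 0.26 without 1 array. Igtp was -0.16 with the percentile over probes detected on all arrays, -0.11 with slide as a block, -0.42 with slide and animal as blocks and without animal B, -0.19 on the larger slide, -0.11 with array weights, and it ranged from -0.22 to 0.22 without 1 array. Lgals3bp was 0.039 with slide and animal as blocks and without animal B, 0.46 on the smaller slide, 0.16 with array weights, and it ranged from -0.61 to 0.19 without 1 array. Leaving out animal B and leaving out repeat probes were chosen after seeing the data, and the cause of these changes was not tested. Of the 7 called members, Cmpk2, Rtp4 and Sp100 kept their call in each fit without 1 array.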
